A study of Bos taurus with 6 samples.

Results

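The small leucine-rich proteoglycans (SLRPs) of bovine fetal fibroblasts (bEFs) were described from RNA-seq libraries. The genes were taken by name from the deposited gene table: DCN, LUM, FMOD, OGN, PRELP, ASPN, OMD and PODN, which are 8 of its 17663 genes. The libraries came from 3 fetuses carrying the fat-1 transgene (FT_1, FT_2 and FT_3) and 3 wild-type fetuses of the Luxi breed (WT_1, WT_2 and WT_3), with 1 library under each fetus's name, all at 50 to 60 days of gestation. The fat-1 gene of Caenorhabditis elegans encodes a desaturase that turns n-6 into n-3 polyunsaturated fatty acids, and the comparison asked which bovine transcripts differ in cells that carry it. Its promoter, the number of transgenic lines and the breed of the FT fetuses are not given in the sources used here, and the level of the transgene was not analysed here. Cells of both groups were grown in primary culture in serum-containing medium, with no other treatment. Their source was the fetal body without its skeleton, viscera, limbs and head. The cells were not sorted, so each culture could hold more than fibroblasts. The libraries held 63366834, 48167642 and 54204446 counts in FT_1, FT_2 and FT_3, and 69777641, 51310741 and 54271927 counts in WT_1, WT_2 and WT_3.

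SLRPs are secreted proteins built from leucine-rich repeats, and many of them carry chains of dermatan, chondroitin or keratan sulfate. They sit on collagen fibrils, where they limit fibril width and spacing, and several of them also hold growth factors such as TGF-β in the matrix. Fibroblasts are a main source of decorin (DCN) and lumican (LUM), the forms best known from skin, tendon and other connective tissue.

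The FT_1 library stood apart from the others. Its biological coefficient of variation, the gene-level spread beyond counting error in edgeR, was 58.7% against FT_2 and 59.4% against FT_3. The FT_2 and FT_3 libraries differed from each other by 7.95%, and the 3 pairs of WT libraries by 9.35% to 12.5%. FT_2 and FT_3 were thus closer to each other than any WT pair, and p-values without FT_1 rest on taking them as separate fetuses, as the study names them. Because FT_1 stood apart, results are given with all 6 libraries and without FT_1, a choice made after the values were seen.

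The label of fetal fibroblasts was checked against marker genes. All 14 fibroblast markers were detected in every library, and vimentin (VIM) was the most abundant of them in every library but FT_1, where S100A4 was, at 1775 FPKM (fragments scaled to transcript length and library depth, a level that can be compared between genes). VIM stood at 1244 FPKM in FT_1, 3850 in FT_2 and 4171 in FT_3. In WT_1, WT_2 and WT_3 it stood at 7891, 8178 and 7312 FPKM. The summed FPKM of the fibroblast markers was lower in FT_1, at 6613, than in FT_2 and FT_3, at 13770 and 13620, and it was 18790, 18620 and 18760 in the WT libraries. Of the 14 genes, 2 were higher in FT (PDGFRA and DDR2), 1 was lower (FBN1), and the others did not pass the test. Without FT_1, 6 were called higher and 3 lower, with VIM among the latter (log2 fold change -0.79, edgeR BH-adjusted p = 1.06e-05). Counts of this and the later marker lists stand beside 39.0% of all tested genes called in either direction, and 62.1% without FT_1.

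Markers of epithelial cells were also present in FT_1. The 7 epithelial genes summed to 314 FPKM in FT_1, against 14.4 and 14.7 in FT_2 and FT_3 and 10.3, 7.92 and 14.2 in WT_1, WT_2 and WT_3. The most abundant of them, the basal keratin KRT5, stood at 172 FPKM in FT_1, at 2.57 and 1.63 in FT_2 and FT_3, and at 0 in the WT libraries. KRT8, a keratin of simple epithelia, stood at 84.1 FPKM in FT_1, at 0.95 and 0.61 in FT_2 and FT_3, and at 0 in the WT libraries. The adhesion molecule EPCAM was found at 0.57 FPKM in FT_1 and at 0 in the other libraries. Outside FT_1 the highest gene of this list was E-cadherin (CDH1), at 7.11 to 13.9 FPKM. Of the 5 epithelial genes tested, 1 was called higher in FT with all libraries (CLDN4) and 4 without FT_1. For mesothelial cells, the 4 listed genes of the table summed to 206 FPKM in FT_1, 45.1 and 46.3 in FT_2 and FT_3 and 2.35 to 3.48 in the WT libraries. Nearly all of it was mesothelin (MSLN), 1 of the 2 genes tested and called higher in FT, while the mesothelial factor WT1 was at 0 in the FT libraries.

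Most smooth muscle and myofibroblast markers moved with the genotype. Their summed FPKM was 2521, 3819 and 3673 in FT_1, FT_2 and FT_3 and 1108, 1088 and 1216 in the WT libraries, and 6 of the 7 genes were called higher in FT. The gene not called, MYH11, was at 0.07 FPKM in FT_1, below the WT libraries at 0.12 to 0.18, and at 1.58 and 1.46 in FT_2 and FT_3, and all 7 were called higher without FT_1. The most abundant in every library but WT_2, where TAGLN was, was the actin ACTA2, at 1372, 2421 and 2378 FPKM in FT_1, FT_2 and FT_3 and 549.8, 503 and 627 in the WT libraries. Of 4 tested adipocyte genes, 2 were called lower in FT, FABP4 and CIDEC, also without FT_1. The other 2 were not called in either fit. Their log2 fold changes were 0.29 for PLIN1 and -0.23 for LPL, and 0.33 and 0.23 without FT_1. The adipocyte list summed to 2.96, 14.0 and 15.3 FPKM in FT_1, FT_2 and FT_3. In the WT libraries the sum was 153, 138 and 155 FPKM, most of it the fatty acid carrier FABP4. The part of these cell type markers in the SLRP values was not tested. In these bulk libraries, fewer cells of a type and less RNA per cell cannot be told apart.

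The other marker lists were low or mixed. For cartilage, the 7 listed genes of the table summed to at most 3.68 FPKM, COL2A1 and MATN1 were under 0.1 FPKM in every library, and 1 of 3 tested genes was called lower (ACAN). For tendon, 1 of 3 tested genes was called higher (MKX), and for bone 1 of 4 (RUNX2), with osteopontin (SPP1) as the most abundant bone gene. For skeletal muscle, 1 of 2 tested genes was called higher (DES, which is also on the smooth muscle list), and for blood 1 of 3 was called lower (CD68). In edgeR's test 0 of 3 endothelial genes and 0 of 2 neural crest genes were called, with 0 in each list at an unadjusted p under 0.05 and 0 in DESeq2. Without FT_1, 1 gene of each list was called lower, PECAM1 (log2 fold change -2.49, edgeR BH-adjusted p = 0.000451) and S100B (-0.74, 0.00123). In that fit the cartilage list had 2 genes lower, the tendon list 1 higher and 1 lower, the bone list 2 higher and 1 lower, the skeletal muscle list 1 higher and 1 lower, and the blood list 2 lower. The endothelial genes summed to at most 1.52 FPKM and the neural crest genes to at most 13.1 FPKM, most of it S100B.

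The 8 SLRPs spanned more than 100-fold in level. In the WT libraries the order by FPKM was DCN, LUM, FMOD, ASPN, PRELP, OGN, OMD and PODN, the same in each of the 3. The WT means were 2193 ± 126 for DCN, 1159 ± 56.7 for LUM, 482 ± 49.5 for FMOD, 253 ± 19.7 for ASPN, 97.7 ± 2.37 for PRELP, 66.6 ± 5.91 for OGN, 9.96 ± 2.31 for OMD and 7.57 ± 0.846 for PODN (FPKM, SD, n = 3). The last neighbours in this order, OMD and PODN, overlapped in range between libraries, and the other neighbours did not. DCN was among the most abundant transcripts of these cells, with rank 15, 2 and 4 among all genes in FT_1, FT_2 and FT_3 and rank 10, 17 and 16 in WT_1, WT_2 and WT_3.

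**Figure D1:**
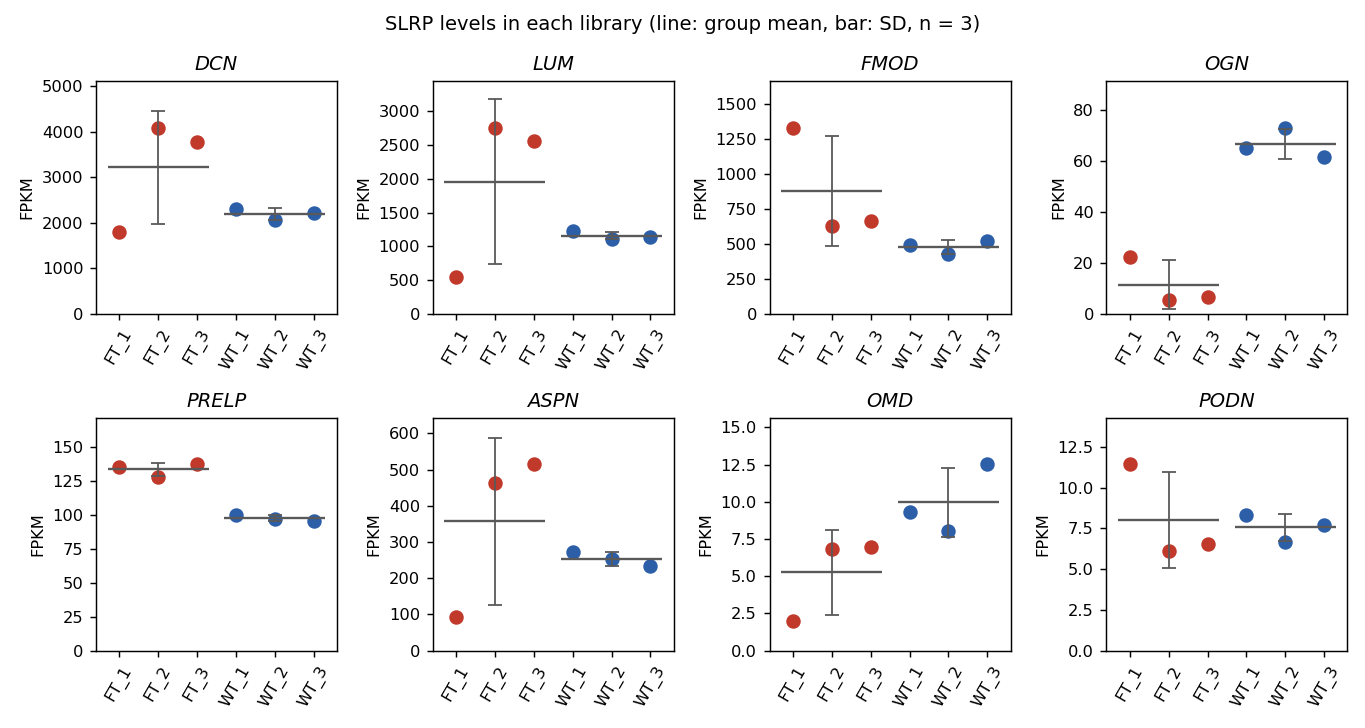
Level of each SLRP (FPKM, y axis from 0) in each of the 6 libraries. Points are libraries, the horizontal line is the group mean and the bar its SD (n = 3); DCN, LUM and ASPN have FT_1 below and FT_2 and FT_3 above the WT points, while PRELP has all 3 FT points above them.

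The order differed in the FT libraries. In FT_1, FMOD stood above LUM and PRELP above ASPN, and OMD was the lowest gene. In FT_2 and FT_3 the first 5 genes were as in WT, but OGN had dropped to the level of OMD and PODN. The 3 lowest genes of FT_2 and FT_3 lay between 5.55 and 6.97 FPKM. OMD, at 6.85 and 6.97 FPKM, was just above the others, and OGN and PODN overlapped.

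The 8 genes summed to 3952 FPKM in FT_1, with 8094 in FT_2 and 7669 in FT_3. In WT_1, WT_2 and WT_3 it was 4473, 4037 and 4298 FPKM. In FPKM FT_1 lay just below the WT libraries and the other FT libraries well above them. The place of FT_1 depended on the scale, since it was 0.926 times the WT mean in FPKM, 1.05 times in counts scaled to the library total, where it was just above every WT library, and 1.04 times, within the WT range, after FPKM were rescaled to a common sum. The 8 genes took 1.02%, 1.79% and 1.72% of all counts in FT_1, FT_2 and FT_3, and 1.02%, 0.921% and 0.985% in the WT libraries. The FT mean over the WT mean was 1.54 in FPKM, 1.55 in counts scaled to the library total and 1.78 after FPKM were rescaled to a common sum, and without FT_1 it was 1.85, 1.80 and 2.15. No test was made of this sum.

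**Figure D2:**
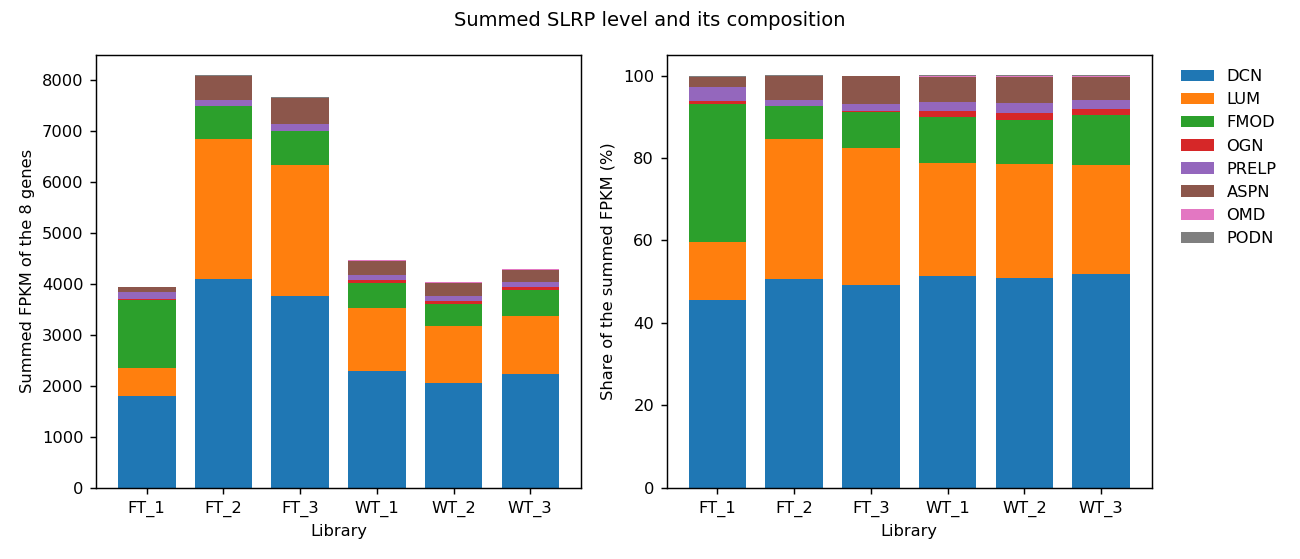
Summed FPKM of the 8 SLRPs in each library (left, stacked by gene, y axis from 0) and the share of each gene in that sum in percent (right). FT_2 and FT_3 carry the highest sums, 8094 and 7669 FPKM, and FT_1 has an FMOD share of 33.7%.

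The composition of the sum was alike in the WT libraries and unlike in FT_1. DCN supplied 45.6% of it in FT_1, 50.6% and 49.1% in FT_2 and FT_3, and 50.9% to 51.8% in the WT libraries. The FMOD share was 33.7% in FT_1, against 7.82% and 8.72% in FT_2 and FT_3 and 10.6% to 12.2% in the WT libraries. The LUM share was 13.9% in FT_1, 34.1% and 33.4% in FT_2 and FT_3 and 26.5% to 27.7% in the WT libraries. Lumican and fibromodulin (FMOD) are close relatives that bind the same region of fibrillar collagen. The ratio of LUM to FMOD was 0.413 in FT_1, with 4.36 and 3.83 in FT_2 and FT_3, and 2.47, 2.61 and 2.17 in WT_1, WT_2 and WT_3. It was below the WT range in FT_1 and above it in the other FT libraries.

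Across all 6 libraries, FMOD and PRELP rose in FT and OGN fell. The remaining 5 SLRPs did not pass the test, edgeR's quasi-likelihood test with a Benjamini-Hochberg (BH) adjusted p under 0.05 over the 13482 genes tested. All 8 SLRPs passed the filter on low counts. Of them 2 were called higher, beside 20.1% of all tested genes, and 1 was called lower, beside 18.9%. In either direction 37.5% of the SLRPs were called, near the 39.0% of all tested genes. With the study's own threshold, a log2 fold change beyond 1 in size with a raw p under 0.05, FMOD was higher and OGN lower, beside 10.2% and 8.96% of all genes. The median log2 fold change of the 8 genes was 0.64, and that of all tested genes 0.03.

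Without FT_1, DCN, LUM, FMOD, PRELP and ASPN were called higher and OGN lower. These 5 and 1 of 8 genes stood beside 30.6% and 31.5% of the 13765 genes tested in that fit. With the study's threshold LUM, DCN and ASPN were then higher and OGN lower, beside 11.0% and 12.2% of all genes. The median log2 fold change was 0.61 for the SLRPs and -0.02 for all genes. Scaling mattered for the balance of all calls, since 2714 genes were higher and 2547 lower with TMM factors (edgeR's trimmed-mean scaling) but 2049 higher and 3394 lower with library totals alone. The median of all genes was 0.03 with the first and -0.12 with the second, so each log2 fold change was lower by about that shift when totals were used. No SLRP changed sign between these scalings.

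**Figure D3:**
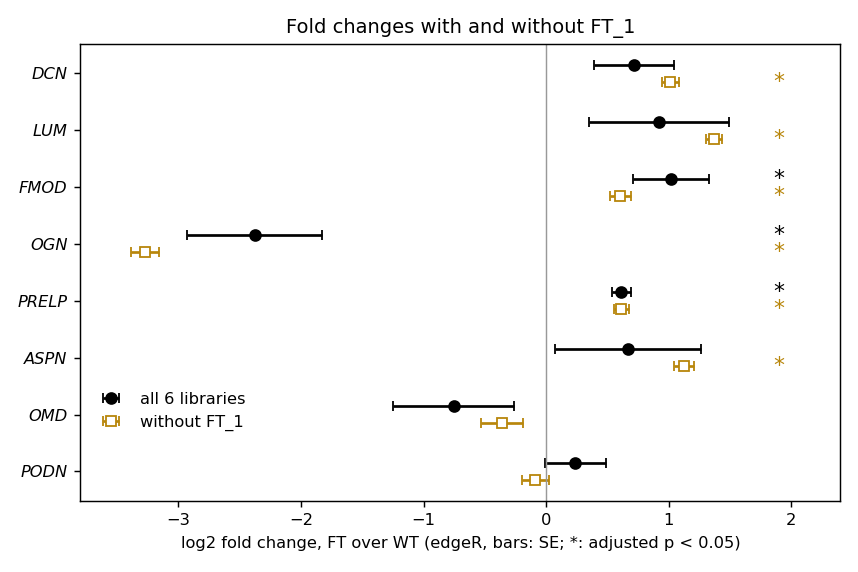
Log2 fold change of each SLRP, FT over WT (x axis), with all 6 libraries (filled circles) and without FT_1 (open squares). Bars are standard errors from edgeR and asterisks mark a BH-adjusted p under 0.05; PRELP keeps 0.61 in both fits, while the error bars of DCN, LUM and ASPN are narrower without FT_1.

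The SLRPs with chains of dermatan or chondroitin sulfate, or related to them, are described first. DCN (ENSBTAG00000003505, chromosome 5, 21014376 to 21053400, minus strand) encodes decorin, which carries such a chain, binds collagen I fibrils and binds TGF-β. Coordinates here and later are those of the authors' table, whose bovine genome build is not given in the sources used here. DCN stood at 1803 FPKM in FT_1, with 4092 and 3769 in FT_2 and FT_3, and at 2299, 2054 and 2227 FPKM in WT_1, WT_2 and WT_3. In FPKM FT_1 was below and FT_2 and FT_3 were above the WT range. In TMM-scaled counts FT_1, at 4108 CPM, was also below the lowest WT library, at 4271. After FPKM were rescaled to a common sum, FT_1 lay within the WT range. The log2 fold change was 0.72 (SE 0.33, edgeR BH-adjusted p = 0.129), with 2 of 3 FT libraries above every WT library, and DESeq2 gave 0.72 with an adjusted p of 0.0468. Over all alternatives the adjusted p (edgeR, DESeq2 or limma) ran from 1.61e-06 to 0.46. Without FT_1 the log2 fold change was 1.01 (SE 0.069, edgeR BH-adjusted p = 1.61e-06).

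ASPN (ENSBTAG00000011847, chromosome 8, 84067290 to 84092633, minus strand) encodes asporin, a relative of decorin that lacks the glycosaminoglycan chain and also binds collagen I. Its level was 92.8 FPKM in FT_1, with 464 and 514.5 in FT_2 and FT_3, and 272, 254 and 233 in WT_1, WT_2 and WT_3. The libraries fell in the same order of groups as for DCN, with FT_1 lowest and FT_2 and FT_3 highest. Its log2 fold change was 0.67 (SE 0.59, edgeR BH-adjusted p = 0.41) with FT_1, and 1.12 (SE 0.079, edgeR BH-adjusted p = 1.94e-06) without it. In FT_1, where ASPN was 0.367 times the WT mean, the epithelial markers summed to 314 FPKM, and their part in this value was not tested.

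SLRPs that carry keratan sulfate, or sit on the same collagen sites, include LUM, FMOD, PRELP and OMD. LUM (ENSBTAG00000001745, chromosome 5, 20971289 to 20978528, minus strand) encodes lumican, known for the transparency of the cornea and for thin, even fibrils in skin. It stood at 551 FPKM in FT_1, with 2759 and 2559 in FT_2 and FT_3, and at 1223.5, 1117 and 1137 in WT_1, WT_2 and WT_3. FT_1 held 0.475 times the WT mean and the other FT libraries 2.38 and 2.21 times, so the groups overlapped. For LUM the log2 fold change was 0.92 (SE 0.57, edgeR BH-adjusted p = 0.244) with FT_1 and 1.37 (SE 0.065, edgeR BH-adjusted p = 1.91e-07) without it. Without FT_1 this was the largest rise among the 8 SLRPs.

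FMOD (ENSBTAG00000014912, chromosome 16, 1122157 to 1132658, minus strand) encodes fibromodulin, which guides early fibril assembly in tendon. FMOD was at 1334 FPKM in FT_1, with 633 and 669 in FT_2 and FT_3, and at 495.5, 427 and 523 in WT_1, WT_2 and WT_3. All 3 FT libraries lay above all WT libraries, with FT_1 at 2.05 times the mean of the other FT libraries. FMOD rose by a log2 fold change of 1.02 (SE 0.31, edgeR BH-adjusted p = 0.0426), and without FT_1 the value was 0.60 (SE 0.087, edgeR BH-adjusted p = 0.000203). The call was lost without FT_3 (edgeR BH-adjusted p = 0.0504), WT_1 (0.126), WT_2 (0.145) or WT_3 (0.106). It was also lost with library totals (edgeR BH-adjusted p = 0.0715), without the count filter (0.0512) and in limma on log2(FPKM + 1) (0.0813), and the range over all alternatives was 0.000203 to 0.145.

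PRELP (ENSBTAG00000017834, chromosome 16, 1238615 to 1252736, plus strand) encodes prolargin, which binds heparan sulfate through a basic end and collagen through its repeats. Its level was 136 FPKM in FT_1, with 128 and 137 in FT_2 and FT_3, and 100.3, 97.2 and 95.7 in WT_1, WT_2 and WT_3. Every FT library was above every WT library, and FT_1 lay between FT_2 and FT_3. PRELP rose by 0.61 on the log2 scale (SE 0.079, edgeR BH-adjusted p = 0.00271) with FT_1 and by the same 0.61 (SE 0.063, edgeR BH-adjusted p = 2.09e-05) without it. The FT mean was 134 ± 4.81 FPKM (SD, n = 3), 1.37 times the WT mean, and the coefficient of variation was 3.6% in FT and 2.42% in WT. PRELP had an adjusted p under 0.05 in every alternative fit (edgeR, DESeq2 and limma), with log2 fold changes of 0.45 to 0.66, but it did not reach the fold change of the study's threshold.

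OMD (ENSBTAG00000011836, chromosome 8, 84044974 to 84052939, minus strand) encodes osteomodulin, a keratan sulfate proteoglycan of bone matrix. It was measured at 1.96 FPKM in FT_1, with 6.85 and 6.97 in FT_2 and FT_3, and at 9.3, 8.05 and 12.5 in WT_1, WT_2 and WT_3. In FPKM the FT libraries were all below the WT libraries, but WT libraries themselves differed widely. In TMM-scaled counts FT_3, at 13.3 CPM, was just below WT_2, at 13.5. After FPKM were rescaled to a common sum, FT_2 and FT_3 were above WT_2, so the groups overlapped. The log2 fold change of -0.75 (SE 0.49) did not pass the test (edgeR BH-adjusted p = 0.268), and without FT_1 it was -0.36 (SE 0.17, edgeR BH-adjusted p = 0.0967). These levels rested on 222 to 1202 counts per library.

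OGN (ENSBTAG00000011824, chromosome 8, 84019514 to 84035380, minus strand) encodes osteoglycin, also called mimecan, which is found in bone, cornea and vessel walls. Its level was 22.4 FPKM in FT_1, with 5.55 and 6.67 in FT_2 and FT_3, and 65.2, 73.1 and 61.5 in WT_1, WT_2 and WT_3. Every FT library was below every WT library, and FT_1 held 3.67 times the mean of the other FT libraries. OGN fell, with a log2 fold change of -2.38 (SE 0.55, edgeR BH-adjusted p = 0.0187), and without FT_1 the value was -3.27 (SE 0.11, edgeR BH-adjusted p = 4.37e-08). The WT mean was 5.77 times the FT mean in FPKM, and 10.9 times the mean of FT_2 and FT_3. The call was lost without FT_3 (edgeR BH-adjusted p = 0.0537), WT_1 (0.0594), WT_2 (0.0653) or WT_3 (0.0549), and the range over all alternatives was 4.37e-08 to 0.0653. The direction was the same in each of them.

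PODN (ENSBTAG00000012514, chromosome 3, 93157902 to 93175464, minus strand) encodes podocan, a distant member of the family that binds collagen I and is known from kidney and vessel walls. PODN was at 11.4 FPKM in FT_1, with 6.14 and 6.54 in FT_2 and FT_3, and at 8.33, 6.66 and 7.73 in WT_1, WT_2 and WT_3. In FPKM it was above the WT range in FT_1 and below it in the other FT libraries. In TMM-scaled counts (31.4 and 33.8 CPM), FT_2 and FT_3 lay within the WT range of 30.4 to 38.0. The log2 fold change was 0.24 (SE 0.25, edgeR BH-adjusted p = 0.481), and without FT_1 it was -0.09 (SE 0.11, edgeR BH-adjusted p = 0.499).

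Set against the WT range, the SLRPs fell into groups by library. FMOD, PRELP, OGN and OMD, 4 of 8, had FT and WT values in FPKM that did not overlap, beside 58.7% of all tested genes. For OMD the groups overlapped after FPKM were rescaled to a common sum. DCN, LUM and ASPN, 3 of 8, had FT_1 below and FT_2 and FT_3 above all WT libraries in FPKM, a pattern found in 5.13% of tested genes. For DCN, FT_1 lay within the WT range after FPKM were rescaled to a common sum. PODN, 1 of 8, had the reverse pattern in FPKM, found in 6.83%, but not in TMM-scaled counts. FT_1, on which these last patterns turn, was also the library with the epithelial sum of 314 FPKM, and the part of those cells in the patterns was not tested. An exact permutation test of 3 against 3 libraries cannot give a p below 0.10, so none was made for single genes.

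Several SLRP genes lie side by side in the genome, and neighbours did not always move together. On chromosome 5 the order in the table was EPYC, KERA, LUM and DCN, on the minus strand, with 35847 bases between LUM and DCN and no other gene of the table between them. LUM and DCN had the same pattern over the libraries in FPKM. KERA, which encodes the corneal keratocan, was at 0.24, 0.07 and 0.16 FPKM in FT_1, FT_2 and FT_3 and at 0.82, 0.57 and 0.33 in the WT libraries. This low gene was below the WT range in all FT libraries, with a log2 fold change of -1.68 (SE 0.56, edgeR BH-adjusted p = 0.0584), and without FT_1 of -2.10 (edgeR BH-adjusted p = 0.00894). EPYC, a cartilage form, was under 0.3 FPKM in every library and did not pass the count filter.

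On chromosome 8 OGN, OMD, ASPN and ECM2 followed each other on the minus strand. The gaps were 9593 bases from OGN to OMD, 14350 from OMD to ASPN and 15848 from ASPN to ECM2. OGN fell while its neighbour ASPN was higher in FT_2 and FT_3, so that the ratio of ASPN to OGN in FPKM was 83.6 in FT_2 and 77.1 in FT_3. In FT_1 that ratio was 4.14, within the WT values of 4.17, 3.48 and 3.79. ECM2, a matrix protein with leucine-rich repeats, was at 76.5 FPKM in FT_1, with 205 and 203 in FT_2 and FT_3, and at 107, 83.3 and 108 in WT_1, WT_2 and WT_3. FT_2 and FT_3 were above the WT range, as for ASPN, and FT_1 was below it in FPKM but within it in TMM-scaled counts. Its log2 fold change was 0.86 (SE 0.39, edgeR BH-adjusted p = 0.128), and without FT_1 1.20 (edgeR BH-adjusted p = 7.13e-06).

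On chromosome 16 FMOD lay on the minus strand, with PRELP 105956 bases further on the plus strand and OPTC 4333 bases after PRELP. FMOD and PRELP both rose, but FT_1 was the highest library for FMOD and not for PRELP. OPTC, which encodes opticin of the vitreous, was at 0.4, 2.52 and 2.24 FPKM in FT_1, FT_2 and FT_3 and at 0.51, 0.32 and 0.47 in the WT libraries. FT_1 was within the WT range and the other FT libraries above it. OPTC had a log2 fold change of 2.12 (SE 0.70, edgeR BH-adjusted p = 0.0553), and without FT_1 2.58 (edgeR BH-adjusted p = 2.18e-05).

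**Figure D4:**
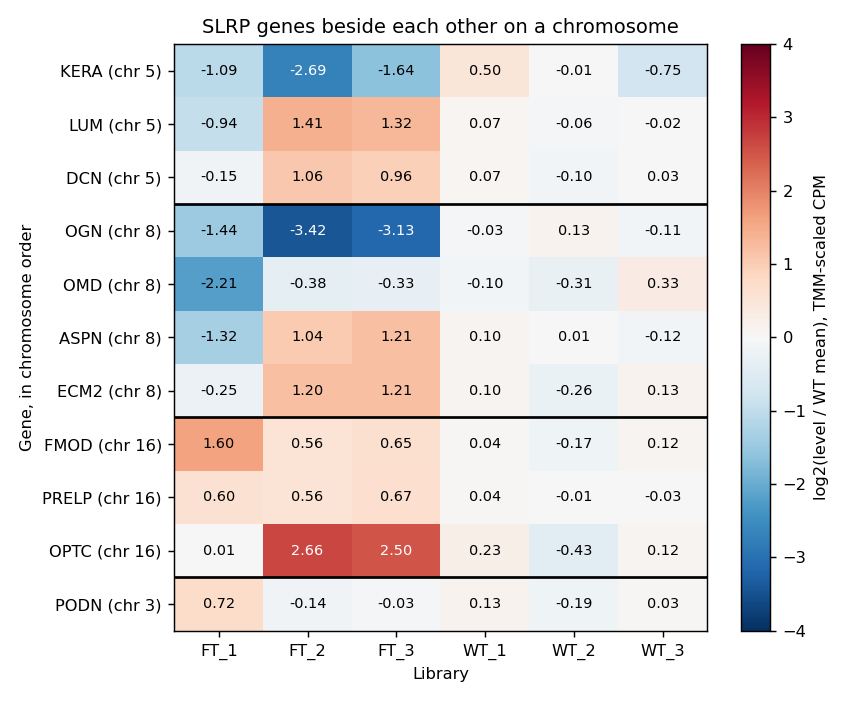
Log2 of the TMM-scaled level over the WT mean for SLRP genes that lie beside each other (rows, in chromosome order, with PODN alone on chromosome 3) in each library (columns). Red is above and blue below the WT mean; on chromosome 8 OGN is blue and ASPN and ECM2 are red in FT_2 and FT_3.

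Of the other SLRP family genes, 8 of 10 listed were in the table, 6 were tested and 1 was called by edgeR with all libraries. DESeq2 called 3 of the 6 higher, PODNL1, ECM2 (adjusted p = 0.0482) and OPTC (0.00796), and 1 lower, KERA (0.0253), and edgeR with library totals also called KERA lower (BH-adjusted p = 0.0464). The gene called by edgeR was PODNL1 on chromosome 7, a relative of podocan, at 5.02, 4.57 and 4.06 FPKM in FT_1, FT_2 and FT_3 and 0.35, 0.13 and 0.34 in the WT libraries. Every FT library was above every WT library. PODNL1 rose by a log2 fold change of 4.18 (SE 0.42, edgeR BH-adjusted p = 0.00139), and without FT_1 by 4.10 (edgeR BH-adjusted p = 2.18e-06). Without FT_1, 4 of the 6 were called higher and 1 lower. These counts stood beside 39.0% of all tested genes called by edgeR in either direction with all libraries, and 62.1% without FT_1. TSKU, a secreted regulator of BMP and Wnt signals, was at 16.9 FPKM in FT_1, 26.3 and 28.9 in FT_2 and FT_3 and 25.4 to 27.9 in the WT libraries. Its log2 fold change was 0.01 (edgeR BH-adjusted p = 0.963) with FT_1 and 0.22 (edgeR BH-adjusted p = 0.0269) without it, and its sign depended on the scaling, with -0.14 when library totals were used. CHAD, a cartilage form that binds integrins, was under 0.8 FPKM in every library (log2 fold change -0.24, edgeR BH-adjusted p = 0.699). CHADL did not pass the filter, and BGN and NYX were not analysed here.

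Because SLRPs coat collagen fibrils, each was also set against COL1A1, the main chain of collagen I, within its library. COL1A1 was at 914 FPKM in FT_1, with 2611 and 2689 in FT_2 and FT_3, and at 2288, 2212 and 2331 in WT_1, WT_2 and WT_3. FT_1 was well below the WT range and the other FT libraries above it, with a log2 fold change of 0.03 (edgeR BH-adjusted p = 0.961) that became 0.39 without FT_1 (edgeR BH-adjusted p = 0.000326). With all libraries its sign depended on the scaling, -0.13 with library totals. The ratio of DCN to COL1A1 in FPKM was 1.97 in FT_1, with 1.57 and 1.40 in FT_2 and FT_3, and 1.0, 0.929 and 0.956 in the WT libraries. All FT libraries were above all WT libraries in this ratio, unlike the DCN level itself. The ratio of LUM to COL1A1 was 0.603, 1.06 and 0.952 in FT_1, FT_2 and FT_3 and 0.535, 0.505 and 0.488 in the WT libraries, again without overlap. ASPN over COL1A1 was 0.101 in FT_1, with 0.178 and 0.191 in FT_2 and FT_3, and 0.0999 to 0.119 in the WT libraries, so that FT_1 stayed within the WT range. FMOD over COL1A1 was 1.46 in FT_1, 0.242 and 0.249 in FT_2 and FT_3 and 0.193 to 0.225 in the WT libraries. Of the other SLRPs, PRELP was above the WT range in every FT library in this ratio, OGN and OMD were below it, and PODN was above it in FT_1 and below it in FT_2 and FT_3. COL1A2, the other chain of collagen I, over COL1A1 was 1.29 in FT_1, 0.756 and 0.719 in FT_2 and FT_3 and 0.939 to 1.04 in the WT libraries. The ratios thus depended on the chain used. Against COL1A2, LUM of FT_1 lay within the WT range, while for DCN the groups still did not overlap. These ratios were chosen after the values were seen and were not tested.

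Genes that build the sugar chains were described from lists of pathway genes. Of 27 tested genes of the glycosaminoglycan linker and of chondroitin and dermatan sulfate synthesis, 11 rose, 2 fell and 14 did not pass the test. Among all tested genes 20.1% were called higher and 18.9% lower. The median log2 fold change was 0.51, beside 0.03 for all genes, and without FT_1 it was 0.34, beside -0.02. The largest rise was that of CHST15, a sulfotransferase for chondroitin sulfate, at 0.49, 0.91 and 1.06 FPKM in FT and 0.02 to 0.03 in WT (log2 fold change 5.05, SE 0.47, edgeR BH-adjusted p = 0.0012). The fall was largest for UGDH, which makes the UDP-glucuronate used in these chains, at 25.1, 20.7 and 23.3 FPKM in FT_1, FT_2 and FT_3 and 65.3, 67.9 and 57.5 in WT. Its log2 fold change was -1.31 (SE 0.11, edgeR BH-adjusted p = 0.000892). The most abundant gene in FT_1 and the WT libraries was DSE, the epimerase that turns chondroitin into dermatan sulfate, at 54, 41.1 and 41.1 FPKM in FT_1, FT_2 and FT_3 and 80.9, 79.7 and 79.2 in WT. In FT_2 and FT_3 it stood below DSEL, CHPF and PAPSS1. DSE fell, with a log2 fold change of -0.66 (SE 0.12, edgeR BH-adjusted p = 0.00816). For CHST15, UGDH and DSE, FT and WT did not overlap. Without FT_1, 15 genes of the list were called higher and 7 lower, beside 30.6% and 31.5% of all tested genes.

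For keratan sulfate, 3 of 9 tested genes rose and the other 6 were not called, and without FT_1 5 were higher and 1 lower. CHST1, which sulfates galactose in keratan sulfate, was at 5.98, 5.7 and 6.13 FPKM in FT and 3.04, 3.1 and 2.16 in WT. This rise, without overlap, had a log2 fold change of 1.26 (SE 0.17, edgeR BH-adjusted p = 0.00338). The most abundant gene of the list, the galactosyltransferase B4GALT1, was at 63.5 to 87.6 FPKM in FT and 63.2 to 75.3 in WT, with overlapping groups (log2 fold change 0.26, edgeR BH-adjusted p = 0.206). Among 11 lysosomal genes of dermatan and keratan sulfate breakdown 4 rose and 1 fell, and without FT_1 7 were higher and 2 lower. Both lists stood beside 39.0% of all tested genes called in either direction, and 62.1% without FT_1. IDUA, the iduronidase that cuts dermatan sulfate, rose from 7.38, 6.72 and 8.18 FPKM in WT to 23.9, 37.2 and 37.0 in FT_1, FT_2 and FT_3 (log2 fold change 2.30, SE 0.21, edgeR BH-adjusted p = 0.00115). The sulfatase ARSB fell by 0.28 on the log2 scale (SE 0.083, edgeR BH-adjusted p = 0.0429). The ARSB call was lost without FT_2 (edgeR BH-adjusted p = 0.114), FT_3 (0.126), WT_1 (0.143), WT_2 (0.124) or WT_3 (0.0838), without the count filter (0.0535) and in limma on rescaled FPKM (0.0581), with a range of 0.00169 to 0.143 over all alternatives.

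Among 17 tested fibril collagens and partners, 5 rose and 1 fell, beside 20.1% and 18.9% of all tested genes. The median log2 fold change was 0.37, beside 0.03 for all genes. Without FT_1, 12 were called higher and 2 lower, beside 30.6% and 31.5% of all genes. In that fit the median was 0.72, beside -0.02 for all genes. COL11A1, which sets the core of thin fibrils, was at 147, 143 and 136 FPKM in FT_1, FT_2 and FT_3 and 28.2, 26.9 and 33.9 in WT. COL11A1 rose without overlap of the groups, with a log2 fold change of 2.42 (SE 0.12, edgeR BH-adjusted p = 0.000523). The microfibril gene FBN1 fell, from 249 to 300.3 FPKM over the WT libraries to 155 to 167 over the FT libraries (log2 fold change -0.65, SE 0.12, edgeR BH-adjusted p = 0.00913).

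Of 15 tested proteases and helpers that cut SLRPs or procollagens, 5 rose and 10 were not called. Among all tested genes 20.1% were called higher and 18.9% lower. Without FT_1, 9 of the list were higher and 4 lower, beside 30.6% and 31.5% of all genes. The largest rise was for ADAMTS3, a procollagen protease, at 2.36 FPKM in FT_1, 0.8 and 0.87 in FT_2 and FT_3 and 0.31 to 0.6 in WT (log2 fold change 1.78, SE 0.51, edgeR BH-adjusted p = 0.036). Without FT_1 its value was 1.11 (edgeR BH-adjusted p = 0.00547). The ADAMTS3 call was lost without WT_1 (edgeR BH-adjusted p = 0.0671), WT_2 (0.125) or WT_3 (0.121) and in all limma fits (0.0593 to 0.121), with a range of 0.00234 to 0.125 over all alternatives. MMP2, a gelatinase able to cut decorin, was the most abundant, at 815 FPKM in FT_1, 2678 and 2704 in FT_2 and FT_3 and 1349 to 1470 in WT. MMP2 thus had the library pattern of DCN, with a log2 fold change of 0.73 (SE 0.46, edgeR BH-adjusted p = 0.248) and, without FT_1, of 1.12 (edgeR BH-adjusted p = 4.45e-07).

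Among 19 tested growth factors and receptors that SLRPs bind, 6 rose and 2 fell, beside 20.1% and 18.9% of all tested genes. Without FT_1, 6 were higher and 9 lower, beside 30.6% and 31.5% of all genes. BMP4, a growth factor of the TGF-β family, was at 16.6 FPKM in FT_1, 32 and 32.2 in FT_2 and FT_3 and 8.88 to 10.1 in WT. It rose in all FT libraries, by a log2 fold change of 1.64 (SE 0.28, edgeR BH-adjusted p = 0.00628). TLR4, an innate receptor for free decorin and other SLRPs, fell to 0.79, 2.44 and 2.42 FPKM in FT_1, FT_2 and FT_3 from 5.38 to 6.68 in WT (log2 fold change -1.54, SE 0.44, edgeR BH-adjusted p = 0.0355). This call was lost without FT_2 (edgeR BH-adjusted p = 0.0565), FT_3 (0.0556), WT_1 (0.103), WT_2 (0.0864) or WT_3 (0.104), and the range over all alternatives was 2.4e-05 to 0.104. The most abundant in FT_1 and WT, the matricellular factor CCN2 (below ITGB1 in FT_2 and FT_3), was at 2030 FPKM in FT_1, 545 and 529 in FT_2 and FT_3 and 703 to 748 in WT. FT_1 was above and the other FT libraries below the WT range, the reverse of the DCN pattern. The log2 fold change was 0.67 (edgeR BH-adjusted p = 0.364) with FT_1 and -0.25 (edgeR BH-adjusted p = 0.00493) without it.

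**Figure D5:**
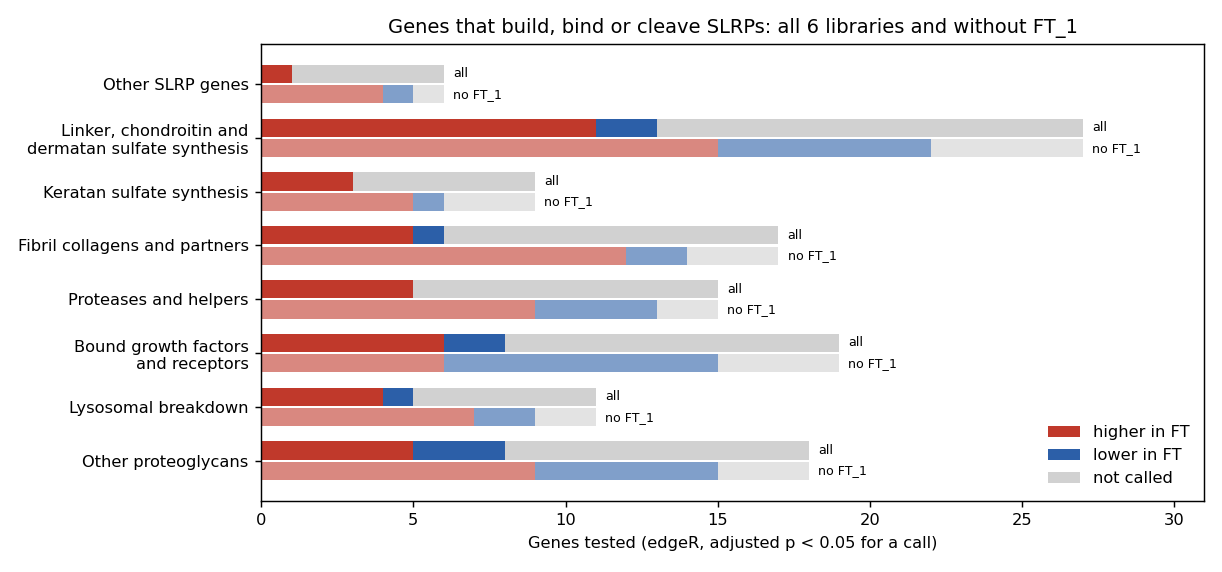
Number of tested genes (x axis, from 0) in each list of genes that build, bind, cut or resemble SLRPs, split into called higher in FT, called lower in FT and not called (edgeR, BH-adjusted p under 0.05). The upper bar of each list uses all 6 libraries and the paler lower bar leaves out FT_1. The list of bound growth factors and receptors goes from 6 higher and 2 lower to 6 higher and 9 lower. Calls among all tested genes go from 39.0% to 62.1%.

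Of 18 tested proteoglycans outside the family, 5 rose and 3 fell, beside 20.1% and 18.9% of all tested genes. Without FT_1, 9 were higher and 6 lower, beside 30.6% and 31.5% of all genes. AGRN, a heparan sulfate proteoglycan of basement membranes, was at 33.3 FPKM in FT_1, 0.61 and 0.62 in FT_2 and FT_3 and 0.03 to 0.08 in WT. The size of this rise rested on FT_1, with a log2 fold change of 7.68 (SE 2.06, edgeR BH-adjusted p = 0.0294) against 3.50 without it (edgeR BH-adjusted p = 1.02e-05). The AGRN call was lost without WT_1 (edgeR BH-adjusted p = 0.108), WT_2 (0.114) or WT_3 (0.102) and in all limma fits (0.077 to 0.271), DESeq2 gave no adjusted p, and the range over all alternatives was 1.02e-05 to 0.271. ACAN, the large proteoglycan of cartilage, was under 0.8 FPKM in every library and fell (log2 fold change -2.26, SE 0.66, edgeR BH-adjusted p = 0.0395). The ACAN call was lost without FT_2 (edgeR BH-adjusted p = 0.0891), WT_1 (0.108), WT_2 (0.115) or WT_3 (0.0931), and the range over all alternatives was 9.85e-05 to 0.115. The most abundant in FT_1 and WT, the hyaluronan receptor CD44 (below GPC1 in FT_2 and FT_3), was at 219 FPKM in FT_1, 122 and 126 in FT_2 and FT_3 and 166 to 188 in WT (log2 fold change -0.05, edgeR BH-adjusted p = 0.89).

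The genes with profiles most like DCN and OGN were sought among 11207 genes with a mean of at least 0.5 FPKM, by the root mean square difference of centred log2(FPKM + 1) over the 6 libraries. For DCN, the member with the highest level, they were CCR7 (0.0349), RGS3 (0.0506) and ANKRD6 (0.083). RGS3, for example, was at 6.17 FPKM in FT_1, 15.7 and 14.6 in FT_2 and FT_3 and 7.83 to 7.91 in WT. CCR7 was at most 1.51 FPKM in any library, where the added 1 flattens differences. For OGN, the member with the largest fold change, they were RBP4 (0.315), GFPT2 (0.33) and PNP (0.339), so its nearest profiles were less close than those of DCN. RBP4 was at 20.3 FPKM in FT_1, 6.19 and 5.95 in FT_2 and FT_3 and 36.9 to 46.2 in WT, which put FT_1 between the other FT libraries and WT as for OGN.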

How the data were processed

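The deposited table held raw read counts and FPKM per gene, both made by the authors, for 3 FT and 3 WT libraries of poly(A) RNA sequenced in paired ends. The submitters' processing notes name HISAT2 2.0, StringTie 1.3.0 and Bowtie 0.12.2. They also name a mouse build, mm8, that cannot be that of a bovine table, and the bovine build is not given in the sources used here. The deposited counts were tested with edgeR 4.0.16 in R 4.3.3 (TMM factors, filterByExpr, quasi-likelihood test, two-sided, Benjamini-Hochberg adjustment over all tested genes). A gene was called at an adjusted p under 0.05. FPKM were used for levels, sums and ratios. The scripts were tested on simulated data. Alternatives used DESeq2 1.42.0, limma 3.58.1 on log2(FPKM + 1), other scalings and filters, a replicate block, and each library left out. Named genes were all 8 SLRPs, the other family genes tested, in each pathway list the called genes with the largest rise and fall and the gene with the highest mean FPKM, and the 3 profiles most like DCN and OGN. A gene that this rule names is not reported here. Genes named from the marker lists were chosen after their values were seen. The SLRPs, gene lists and marker lists (fibroblast, cartilage, tendon, bone, smooth muscle, skeletal muscle, adipocyte, endothelial, epithelial, mesothelial, blood, neural crest) were chosen with earlier results of these data known.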

Additional observations from a re-analysis of the deposited data

How the results depend on the processing

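Of 128 log2 fold changes of the 8 SLRPs under alternatives, 109 kept their direction and side of the threshold, 14 kept only their direction and lost the call, 4 gained one and 1 changed sign. For the other named genes these were 410, 40, 14 and 20 of 484. The number of SLRPs called higher was 1 with library totals only (2049 of all genes higher, 3394 lower), without the count filter (2456, 2384), in limma on log2(FPKM + 1) (1837, 3573), on log2(FPKM + 0.1) (1880, 3529) and on log2(FPKM + 1) without a filter (1744, 3622), and by the study's threshold (1378, 1208). It was 3 in DESeq2 (3281, 3061). With the replicate number as a block it was 1; the correlations of same-numbered libraries were -0.00103, -0.0198 and 0.0184, so the numbers did not pair the samples, and the block called 1838 genes higher and 1741 lower. By the study's threshold without FT_1 it was 3, with 1521 and 1686 of all genes higher and lower. Leaving out each library in turn gave 1 to 5 SLRPs higher, 0 to 1 lower, and 1516 to 4215 of all genes higher and 1531 to 4337 lower. The sign of TSKU changed with library totals (-0.14), in the limma fits on FPKM (-0.18 in each) and in the block (-0.02). That of COL1A1 changed with library totals (-0.13), in the limma fits on FPKM (-0.29 in each), on rescaled FPKM (-0.09) and in the block (-0.12). With the block, FMOD, ACAN, AGRN, ARSB and TLR4 also lost their calls. Leaving out each library in turn gave log2 fold changes of -0.15 to 0.22 for TSKU, -0.21 to 0.39 for COL1A1, -0.09 to 0.39 for PODN, -0.25 to 0.98 for CCN2, -0.36 to 0.10 for CD44 and -0.45 to 0.26 for CHAD. The causes were not tested. Errors depended on FT_1: the standard error of DCN, at 231286 counts or more in each library, was 0.33 with all libraries and 0.069 without FT_1.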

Other observations

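Some matrix genes chosen after their values were seen had the library pattern of DCN or its reverse. ELN, which encodes elastin, was at 23.4 FPKM in FT_1, 289 and 324 in FT_2 and FT_3 and 36.7 to 57.6 in WT. Its log2 fold change was 2.35 (edgeR BH-adjusted p = 0.0822) with all libraries and 2.89 (edgeR BH-adjusted p = 3.6e-07) without FT_1. TGFB2, a ligand of the TGF-β family, was at 26.2 FPKM in FT_1, 2.1 and 1.98 in FT_2 and FT_3 and 3.65 to 3.87 in WT. It was above the WT range in FT_1 and below it in the other FT libraries, and its log2 fold change was 1.57 (edgeR BH-adjusted p = 0.269) with FT_1 and -0.70 (edgeR BH-adjusted p = 0.00101) without it.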
